A study of Mus musculus with 4 samples.

Results

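Radial glia are the neural stem cells of the developing cerebral cortex. Their cell bodies line the ventricle, a long process runs from there to the outer surface, and they divide to renew themselves and to give rise to intermediate progenitors and neurons. The 8 genes below are widely used to recognise these cells, and they were compared in the cortex of WT mice and of mice carrying a conditional SERPINA3 knock-in. Pax6, Sox2 and Sox9 encode transcription factors, Nes and Vim encode intermediate filament proteins, Fabp7 encodes a fatty acid binding protein, Slc1a3 encodes the glutamate transporter GLAST, and Prom1 encodes prominin 1, a protein of membrane protrusions on the ventricular surface. They were chosen by symbol, and all 8 were found among the 26433 genes of the count table.

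Tissue labelled as cerebral cortex, and as telencephalic in the study's methods, was taken at embryonic day 15 (E15) and its RNA was sequenced in bulk, with 2 libraries from cKI f/+ embryos and 2 from WT embryos, all labelled as strain C57BL/6. The knock-in allele places 3×flag-tagged human SERPINA3 behind a loxP-flanked stop cassette at Rosa26, under a CAG promoter, and Nestin-Cre removes that cassette in neural progenitors and so in the cells they produce. Nes, the nestin gene, is one of the 8 genes, and the Cre line is named after it. The study lists that line as transgenic, so Cre need not be driven by the endogenous Nes gene counted here. The WT controls were littermates, and founders of the knock-in line had been bred with B6D2F2 mice. Neither the labels nor the study's methods say whether the WT embryos carried Cre or whether embryos were pooled, and the human transgene was not measured here, because the table lists mouse genes. The comparison asks whether SERPINA3 in cortical progenitors is accompanied by another level of the transcripts that mark radial glia. The 4 libraries held between 17423512 and 18119444 counted reads, and 3 reads, taken as the floor, equalled 0.166 to 0.172 CPM (counts scaled to a common library size). All 8 genes were above that floor in every library. Levels below are CPM on library sizes scaled by TMM, a trimmed mean normalisation, unless reads are named. The count columns name a genotype and a number (KI2, KI3, WT1 and WT3), and KI3 and WT1 match no single labelled sample, so the libraries are called cKI 2, cKI 3, WT 1 and WT 3 and were not paired. The study's methods describe replicates of mouse experiments in general as different embryos, but no label ties a library to an embryo, so p-values measure the spread between these libraries.

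The sexes of the libraries followed genotype. Xist, the RNA that silences one X chromosome in females, was counted 13223 and 11882 times in cKI 2 and cKI 3 but 5 times in WT 1 and in WT 3. Kdm5d, a gene of the Y chromosome, was counted 0 times in cKI 2 and cKI 3, and 951 and 918 times in WT 1 and WT 3. Sex and genotype therefore cannot be told apart in any difference below. All 8 radial glia genes are autosomal.

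The sequence just upstream of a gene is where the general transcription machinery assembles, and 3 of these regions are shown. They belong to the gene with the highest level per length (Fabp7) and to the only gene whose groups did not overlap (Slc1a3). The last belongs to the endogenous gene after which the Cre line is named (Nes). They come from RefSeq on GRCm38.p6, run 5′ to 3′ on the strand of the gene and stop before its first annotated exon. Capitals mark CCAAT or its reverse complement ATTGG, the pentamer bound by the factor NF-Y. Fabp7 is shown for chr10:57784673-57784880 on the plus strand, Slc1a3 for chr15:8710808-8711057 on the minus strand and Nes for chr3:87970843-87971077 on the plus strand.
Fabp7: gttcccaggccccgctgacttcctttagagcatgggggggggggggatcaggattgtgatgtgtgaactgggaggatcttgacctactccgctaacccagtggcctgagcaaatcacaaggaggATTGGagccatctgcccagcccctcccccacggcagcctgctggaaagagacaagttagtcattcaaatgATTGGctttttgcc
Slc1a3: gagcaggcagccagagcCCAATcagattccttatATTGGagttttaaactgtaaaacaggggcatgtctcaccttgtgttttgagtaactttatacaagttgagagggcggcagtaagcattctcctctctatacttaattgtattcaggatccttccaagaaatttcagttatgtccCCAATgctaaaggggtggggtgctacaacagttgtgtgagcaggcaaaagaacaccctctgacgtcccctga
Nes: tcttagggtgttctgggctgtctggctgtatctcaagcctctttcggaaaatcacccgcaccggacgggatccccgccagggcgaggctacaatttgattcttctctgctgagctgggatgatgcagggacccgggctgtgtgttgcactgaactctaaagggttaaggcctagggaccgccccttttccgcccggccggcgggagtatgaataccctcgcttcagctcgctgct
The Fabp7 stretch holds 2 copies, the Slc1a3 stretch holds 3 and the Nes stretch holds 0. RefSeq windows matched 7 of the 8 genes, as 9 windows of 250 upstream bases, and Sox9 had none. All 250 bases of the windows of Vim, Pax6 (window 2) and Prom1 (window 1) lay in annotated exons, so these windows are not purely upstream sequence. Of these 9 windows 6 held CCAAT on either strand, those exonic windows of Vim and Prom1 included, against 33.9% of all 32851 windows. The letters ACAAT, part of the motif that SOX proteins bind, were found on either strand in 4 of the 9 windows, against 27.7% of all windows. Those 4 windows belong to Pax6, Nes, Fabp7 and Slc1a3. The motif TGGGAA, the core that RBPJ binds in Notch signalling, was found in 2 of the 9 windows, those of Prom1 and Fabp7, against 21.6% of all windows. The median CpG count was 9 in the 9 windows and 6 in all windows. A match describes these letters only and is no evidence that a factor was bound.

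All 8 genes were well covered, and their levels spanned a wide range. To compare genes with one another, CPM were divided by the summed exon length of each gene in kilobases. Fabp7 was highest on this scale, at 320 to 402 CPM per kb over the 4 libraries. Vim followed at 170 to 193 CPM per kb, apart from Fabp7 in every library. Nes, at 77.7 to 87.7, and Sox2, at 72.4 to 88.0 CPM per kb, overlapped and were not separated. Sox9 lay at 17.1 to 21.9 CPM per kb, below both. Slc1a3, at 10.9 to 12.5, and Pax6, at 10.8 to 12.5 CPM per kb, overlapped almost entirely. Prom1 was lowest at 5.93 to 6.59 CPM per kb. Fabp7 and Vim thus had the highest transcript levels per length of the 8, and 5 of the 7 neighbouring pairs in this order did not overlap. When the longest transcript was used as the length, the number of separated pairs was again 5, but Pax6 moved from place 7 to place 5 and Sox9 from place 5 to place 7. Pax6 has 26 annotated transcripts and Sox9 has 1, so the summed exon length of Pax6 is much longer than any one of its messages. Without a division by length, Vim had more CPM than 99.4% of the 15786 genes that passed the expression filter, and Prom1, the lowest of the 8, more than 65.6%.

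**Figure D1:**
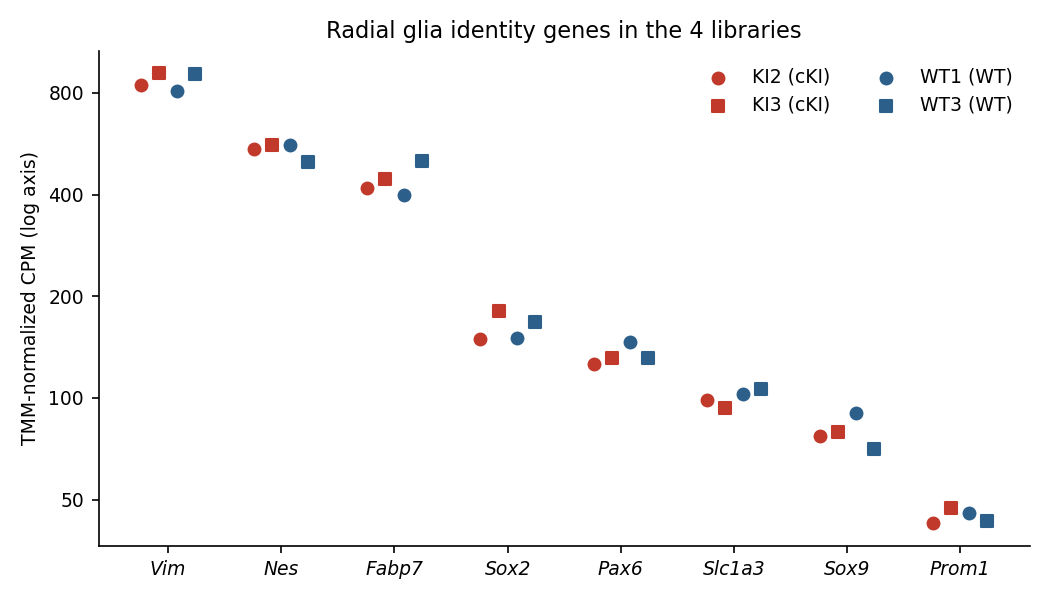
Level of each radial glia gene in the 4 libraries on a log axis, in the unit given there. Each point is 1 library and colours give the genotype. Prom1 lies lowest, and the points of the cKI f/+ and WT libraries intermingle for every gene except Slc1a3.

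No radial glia gene was called different between cKI f/+ and WT cortex. After Benjamini-Hochberg adjustment of edgeR's quasi-likelihood p-values over all 15786 genes, 0 of the 8 passed an adjusted p of 0.05, while 19 genes, or 0.120% of all genes tested, did. Without chromosomes X and Y, 11 genes were called and again 0 of the 8. At an unadjusted p under 0.05 there were also 0 of the 8, against 726 genes or 4.60% of all tested, and DESeq2 called 0 of the 8 too. The log2 fold changes of the 8 genes (cKI f/+ over WT) ran from -0.12 to 0.06, with 4 above and 4 below 0. Their median was -0.01, beside 0.00 over all genes tested. In bulk tissue fewer radial glia and less RNA per radial glial cell cannot be told apart, and the 8 levels bear on their product only.

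Pax6 is required for the identity and division of cortical radial glia. It measured 126 and 131 CPM in cKI 2 and cKI 3, and 146 and 131 CPM in WT 1 and WT 3. WT 1 was the highest library, and the other 3 lay close together, with cKI 3 just above WT 3. The log2 fold change was -0.11 ± 0.08 (SE), with a 95% interval from -0.30 to 0.08 and an adjusted p of 0.970 in edgeR's test.

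Sox2 maintains the stem cell state of neural progenitors. Its levels were 149 and 181 CPM in cKI 2 and cKI 3, against 150 and 167 CPM in the WT libraries. The cKI f/+ libraries held both the lowest and the highest value, so the groups overlapped fully. The log2 fold change was 0.05 ± 0.10 (SE; 95% interval -0.18 to 0.29; edgeR adjusted p = 0.994).

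Sox9 acts in the formation and upkeep of neural stem cells and later in glial development. It had 77.1 and 79.1 CPM in cKI 2 and cKI 3, and 90.4 and 70.7 CPM in WT 1 and WT 3. Here the WT libraries held both extremes and the cKI f/+ libraries lay between them. Its standard deviation was 13.9 CPM in WT and 1.41 CPM in cKI f/+ (n = 2 each), and the log2 fold change was -0.05 ± 0.11 (SE; 95% interval -0.30 to 0.21; edgeR adjusted p = 0.994).

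The 2 filament genes were abundant in both genotypes. Nes, which encodes nestin, measured 547 and 559 CPM in cKI 2 and cKI 3, against 562 and 499 CPM in WT 1 and WT 3. Vim, which encodes vimentin, measured 845 and 914 CPM in cKI 2 and cKI 3, against 808 and 911 CPM in WT 1 and WT 3. For each gene the 2 genotypes overlapped. The log2 fold change was 0.06 ± 0.08 (SE) for Nes and 0.03 ± 0.08 (SE) for Vim, with edgeR adjusted p of 0.993 and 0.994. The 95% interval ran from -0.12 to 0.24 for Nes and from -0.15 to 0.22 for Vim.

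Fabp7, also known as brain lipid binding protein, carries fatty acids in radial glia. Its levels were 418 and 445 CPM in cKI 2 and cKI 3, and 400 and 502 CPM in WT 1 and WT 3. Both cKI f/+ values fell between the WT values. The log2 fold change was -0.06 ± 0.11 (SE; 95% interval -0.30 to 0.17; edgeR adjusted p = 0.993).

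Slc1a3 takes up glutamate in radial glia and later in astrocytes. It was the only one of the 8 whose groups did not overlap, with 98.9 and 93.2 CPM in cKI 2 and cKI 3, against 103 and 107 CPM in the WT libraries. Both cKI f/+ values were lower than both WT values. The log2 fold change was -0.12 ± 0.08 (SE), with a 95% interval from -0.30 to 0.05, an unadjusted p of 0.140 and an adjusted p of 0.969 in edgeR's test. Groups that do not overlap, in either direction, were seen for 34.1% of all genes tested, so 1 of 8 does not exceed the background.

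Prom1 encodes a protein used to sort ventricular progenitors. It had 42.6 and 47.3 CPM in cKI 2 and cKI 3, and 45.6 and 43.2 CPM in WT 1 and WT 3. The lowest and the highest value were both cKI f/+ libraries. The log2 fold change was 0.02 ± 0.10 (SE; 95% interval -0.20 to 0.24; edgeR adjusted p = 0.994).

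The biological coefficient of variation estimated by edgeR, which borrows information across genes, was 6.09% to 8.44% for the 8 genes and 9.02% for the median gene, low-count genes included. All 8 intervals included 0, and over the 8 genes their bounds ran from -0.30 to 0.29 on the log2 scale, or folds of 0.811 to 1.22. With 2 libraries per group, differences that lie inside a gene's own interval are compatible with these counts, and the interval is not a limit of detection. The exact two-sided permutation test of 2 against 2 libraries cannot give a p below 0.333.

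**Figure D2:**
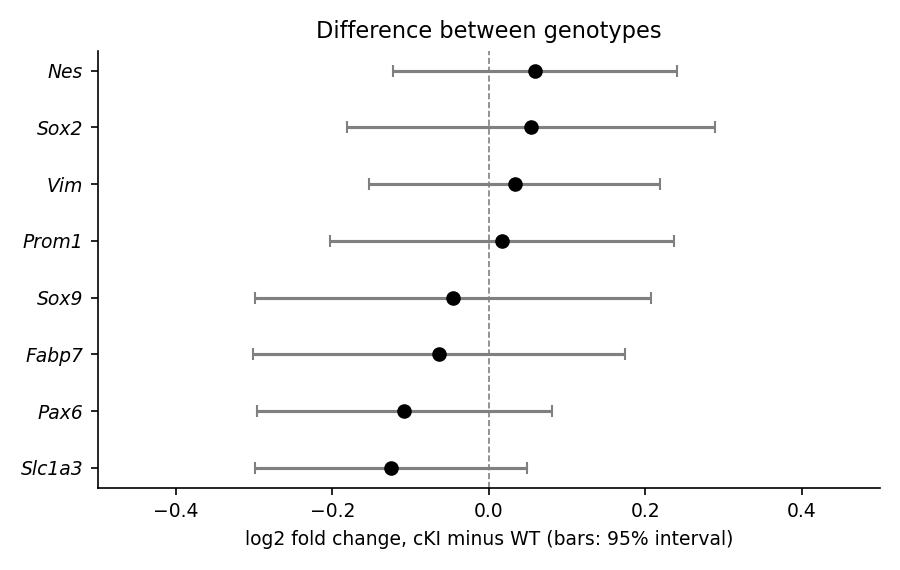
Log2 fold change (cKI f/+ over WT) of each radial glia gene on the x axis, with bars for the 95% interval of edgeR's fit. Every bar crosses 0, and no bar reaches past -0.30 or 0.29.

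The 8 genes did not move together from library to library. The difference between the WT libraries, as log2 of WT 3 over WT 1, ran from -0.35 for Sox9 to 0.33 for Fabp7. Sox2 and Vim were also higher in WT 3, by 0.15 and 0.17, and Pax6 and Nes lower, at -0.16 and -0.17. For comparison, the median size of this ratio over 11320 genes with a mean above 5 CPM was 0.12, so Sox9 and Fabp7 lay well outside it, in opposite directions. Between the cKI f/+ libraries, log2 of cKI 3 over cKI 2 was 0.28 for Sox2, 0.15 for Prom1, 0.11 for Vim and between -0.08 and 0.09 for the other 5, with a median size over all genes of 0.10. Within each genotype, then, single genes of the 8 differed by more than the largest difference between the genotypes. Summed over the 8 genes, the level was 2304 and 2450 CPM in cKI 2 and cKI 3, against 2306 and 2430 CPM in the WT libraries.

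Transcript length moved with the differences between libraries, most with that between the WT libraries. Over the same 11320 genes, Spearman's rho of log2 WT 3 over WT 1 with the length of the longest transcript was -0.398. It was -0.261 for log2 of cKI 3 over cKI 2 and -0.251 for the log2 fold change between genotypes. These values describe genes of the same libraries, and the genes are not independent replicates. Fabp7, the shortest of the 8 with a longest transcript of 880 bases, had the highest ratio of WT 3 to WT 1. Nes, the longest at 6126 bases, had a ratio of -0.17. Genes in the length class of Fabp7 had a median ratio of 0.12 and those in the class of Nes a median of -0.08. Each of these genes lay further out than the median of its class. Fabp7 lay above the upper quartile of its class (0.21), whereas Nes lay between the quartiles of its class (-0.19 and 0.04). Sox9 (4135 bases, -0.35) and Slc1a3 (4435 bases, 0.05) have similar lengths and differed widely in this ratio. The part of transcript length in these differences was not tested.

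**Figure D3:**
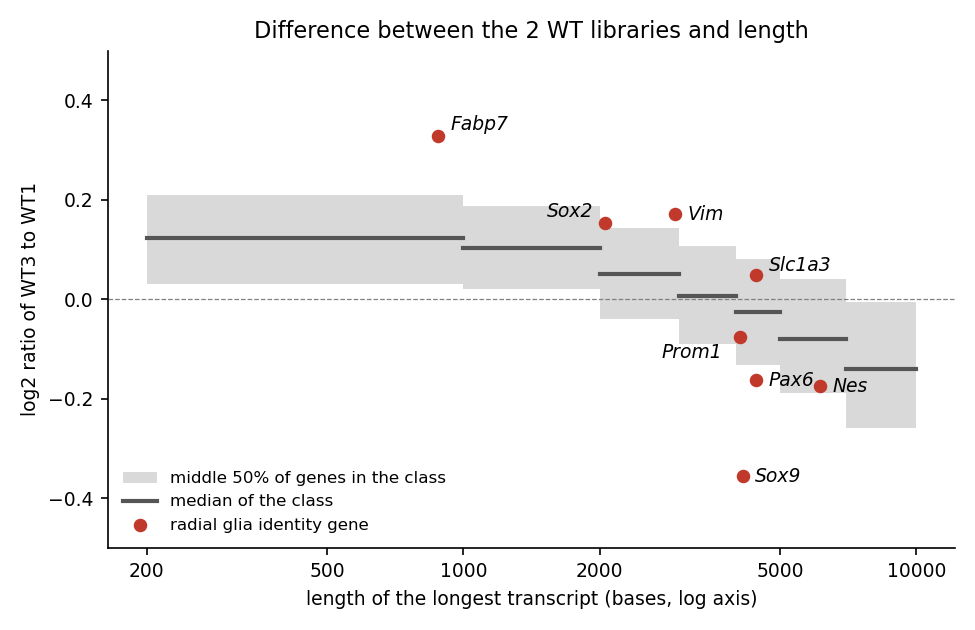
Log2 ratio of WT 3 to WT 1 on the y axis against the length of the longest transcript in bases on a log x axis, with the 8 radial glia genes as points and the median of all genes in each length class as steps. The ratio is highest for Fabp7 (0.33), the shortest of the 8, and lowest for Sox9 (-0.35).

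The difference between genotypes moved with GC content. Spearman's rho of the log2 fold change with the GC content of the longest transcript was 0.464 over 11320 genes, all from the same 4 libraries. Median log2 fold changes by class of GC content rose from -0.13 in the lowest class to 0.07 in the highest. The GC content of the 8 genes ran from 42.6% for Fabp7 to 55.5% for Nes. The fold changes of Fabp7 (-0.06, class median -0.08) and Nes (0.06, class median 0.05) were close to those of genes of like GC content. Pax6 (49.3% GC, -0.11, class median 0.01) and Slc1a3 (45.7% GC, -0.12, class median -0.05) lay below theirs. With offsets smoothed on GC content, an alternative chosen after seeing the data, Fabp7 and Nes both came to 0.00, Pax6 stayed at -0.11 and Slc1a3 was -0.10, and 0 of the 8 were called. With offsets smoothed on transcript length instead, also chosen after seeing the data, Fabp7 moved the other way to -0.13 and Nes to 0.10, and again 0 of the 8 were called.

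**Figure D4:**
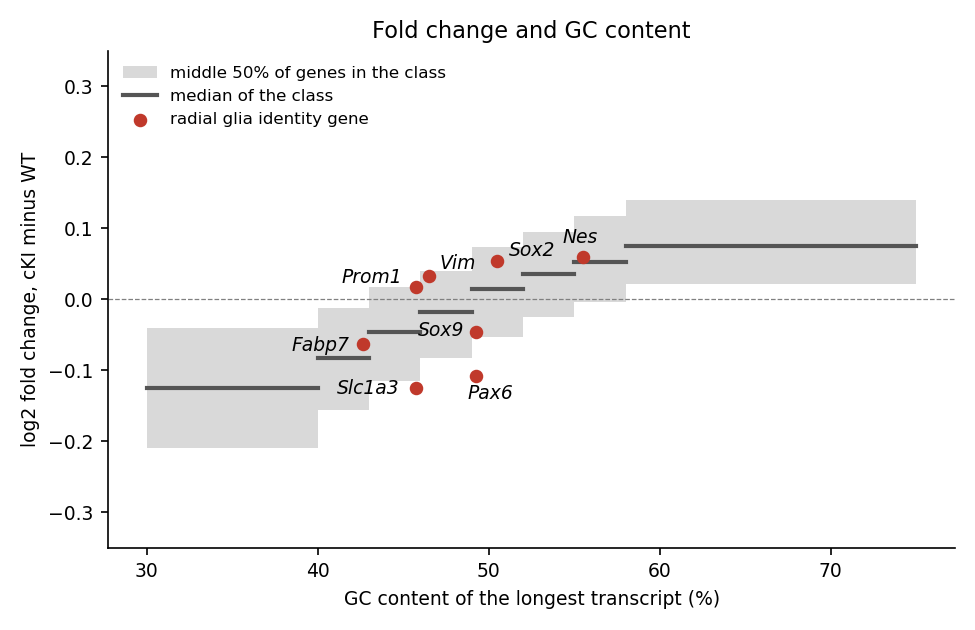
Log2 fold change (cKI f/+ over WT) on the y axis against the GC content of the longest transcript in percent on the x axis, with the 8 radial glia genes as points and the median of all genes in each GC class as steps. Class medians climb from -0.13 to 0.07; Fabp7 and Nes sit near the steps, Pax6 and Slc1a3 below them.

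Some reads near these genes could belong to neighbours. The long noncoding gene Sox2ot surrounds Sox2 (chr3:34650405-34652461) on the same strand and had 447, 498, 471 and 511 reads in cKI 2, cKI 3, WT 1 and WT 3, against 2624, 3281, 2654 and 2915 for Sox2. Pax6os1, on the strand opposite to Pax6 (chr2:105668900-105697364), had 18 to 22 reads per library. Gm16401 overlaps the start of Prom1 (chr5:43993620-44102032) on the opposite strand, and was counted 21 and 18 times in cKI 2 and cKI 3, and 35 and 29 times in WT 1 and WT 3. The strand setting of the counting is not given in the sources used here, so reads of overlapping genes cannot be told apart. Adding the overlapping genes' reads to their member called 0 of the 8 and turned the log2 fold change of Prom1 from 0.02 to -0.01. Of the 31-base words in each gene's exons, the share also found in another gene was 0% for Nes and Fabp7, at most 1.45% for Vim, Pax6, Sox2, Sox9 and Slc1a3, and 7.48% for Prom1.

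The annotations in the table overlap little among the 8 genes, and they are uneven. Biological process terms number 0 for Vim and 125 for Sox9, so a term that is not shared can be one that is missing. The gene ontology terms in the table gave 1 term held by 3 of the 8, positive regulation of DNA-templated transcription, for Pax6, Sox2 and Sox9. The protein domain columns pair Sox2 with Sox9 through an HMG box and Nes with Vim through the intermediate filament domain. The genes whose pattern over the 4 libraries was nearest to the mean of the 8 were H13, Isg20l2, Rnf4, Smarce1 and Rdh14, with root mean square differences of 0.0031 to 0.0074 log2 units among 10028 genes with a mean of at least 10 CPM. That mean pattern was itself nearly flat, from -0.05 to 0.03.

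Further genes of radial glia were not called either. Of 31 further genes of radial glia and apical progenitors, 0 were called, 19 had a higher and 12 a lower estimate in cKI f/+ cortex, and their median log2 fold change was 0.06 against 0.00 over all genes. At an unadjusted p under 0.05 there were 1 higher and 2 lower, against 4.60% of all genes in either direction. The groups did not overlap for 8 genes with the higher and 5 with the lower level in cKI f/+, against 34.1% of all genes in either direction. Lhx2, a cortical selector gene and the most abundant of the 31 by CPM, had 666 and 737 CPM in cKI f/+ and 599 and 641 CPM in WT, a log2 fold change of 0.18 (unadjusted p = 0.0521 in edgeR's test). Qk, an RNA binding protein gene, had 147 and 136 CPM in cKI f/+ and 160 and 180 CPM in WT, a log2 fold change of -0.27 (edgeR unadjusted p = 0.0124, adjusted p = 0.969). Acsbg1, an acyl-CoA synthetase gene, had 13.6 and 15.1 CPM in cKI f/+ and 20.0 and 17.8 CPM in WT. Its log2 fold change was -0.40 with an adjusted p of 0.969 in edgeR's test. In all 3 genes the groups did not overlap, with Lhx2 higher and Qk and Acsbg1 lower in cKI f/+ cortex, and none of these differences passed the adjusted threshold.

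Genes of the apical junctions that anchor radial glia at the ventricle had 0 of 17 called and a median log2 fold change of 0.00. Crb2, an apical polarity gene, had the lowest p of that group (log2 fold change 0.40, edgeR unadjusted p = 0.0029, adjusted p = 0.667). Ctnnb1, which encodes β-catenin, had -0.06. Of 10 genes of dividing cells 0 were called, with a median of 0.03 and values of 0.17 for Cdk1, -0.06 for Top2a and 0.02 for Pcna. Among relatives of the 8 genes from the same families, 18 of the 24 in the table passed the expression filter and 0 were called. Sox3 was the most abundant SOX relative at 73.2 CPM per kb and Fabp5 the most abundant FABP relative at 95.9 CPM per kb, near Nes and Sox2 and below Fabp7. Pax2, Pax3, Pax5 and Pax7 had at most 3 reads in any library, a level at or under the floor.

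Of the markers of cells that radial glia produce, 0 were called. Intermediate progenitor markers (8 genes) had a median log2 fold change of 0.07, with 0.08 for Eomes and 0.06 for Neurog2. Markers of postmitotic neurons (10 genes) had a median of -0.13, 9 of them with an estimate below 0, among them Tbr1 at -0.19 and Neurod6 at -0.09. Over all 15786 genes tested, 7704 had an estimate below 0. Fold changes also moved with GC content over all genes, and the part of GC content in the marker values was not tested. Summed neuronal marker levels were 6941 and 6411 CPM in cKI 2 and cKI 3, against 7000 and 7171 CPM in the WT libraries, lower in both cKI f/+ libraries. For intermediate progenitors the sums were 1436 and 1469 CPM in cKI f/+ and 1419 and 1378 CPM in WT, higher in both cKI f/+ libraries. These sums are descriptions and were not tested. Among single genes, groups that did not overlap were seen for 34.1% of all genes tested, in either direction.

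**Figure D5:**
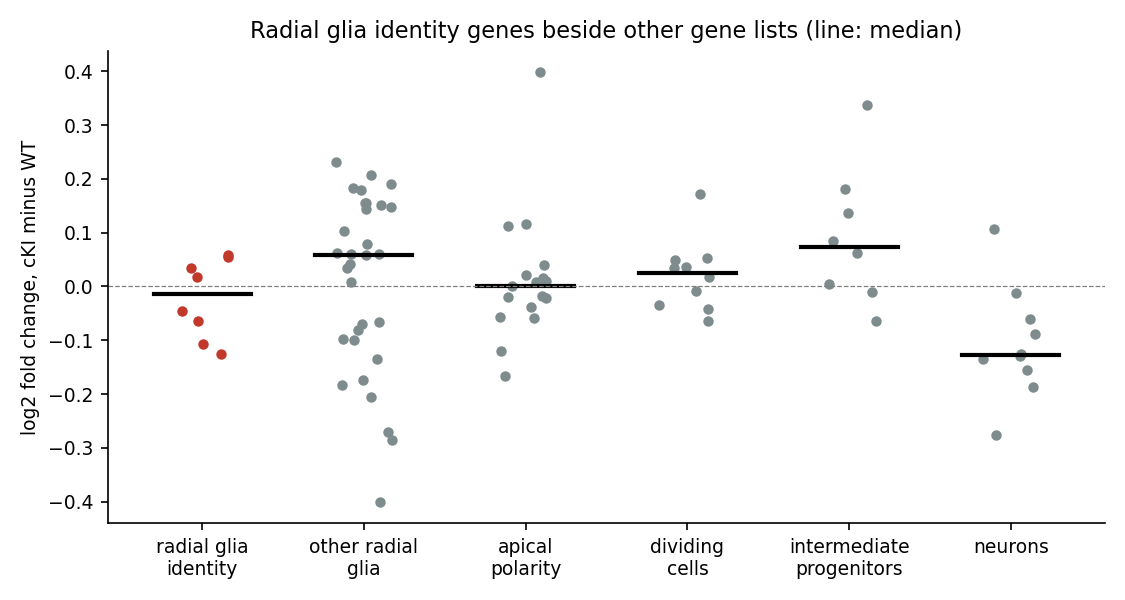
Log2 fold change (cKI f/+ over WT) of the tested genes of the gene lists drawn, with 1 point per gene and a bar at each median. Radial glia genes lie between -0.12 and 0.06, the other radial glia genes between -0.40 and 0.23 and 9 of the 10 neuronal markers below 0. For comparison, whether drawn or not, choroid plexus and meningeal markers had medians of 1.83 and 1.30, and ventral markers ran from -1.23 to 1.94.

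The libraries differed in markers of other tissues and cell types. Choroid plexus markers summed to 8.80 and 63.9 CPM in cKI 2 and cKI 3, and to 1.53 and 4.02 CPM in WT 1 and WT 3. Ttr, the transthyretin gene that defines choroid plexus, had 6.58 and 52.7 CPM in cKI f/+, 0 reads in WT 1 and 0.230 CPM in WT 3 (edgeR adjusted p = 0.115). Meningeal markers summed to 21.9 and 19.9 CPM in cKI f/+ and 9.98 and 11.5 CPM in WT, and 4 of the 5 tested had an unadjusted p under 0.05, against 4.60% of all genes. Both sums were higher in both cKI f/+ libraries, but 0 of their 4 and 5 tested genes were called. In cKI 2 the choroid plexus sum was mostly Ttr. Otx2, also on that list, had 0.738 and 3.53 CPM in cKI f/+ and 1.08 and 2.24 CPM in WT. Groups did not overlap for 2 of the 4 choroid plexus and 4 of the 5 meningeal markers tested, all higher in cKI f/+. Foxc1, a meningeal marker, had a log2 fold change of -0.49. Groups that did not overlap were seen for 34.1% of all single genes tested, in either direction. Endothelial markers, at 120 and 129 CPM in cKI f/+ and 141 and 138 CPM in WT, and erythroid markers, at 494 and 367 against 491 and 522 CPM, had median log2 fold changes of -0.19 and -0.37. Microglial and astrocyte or oligodendrocyte lineage markers had medians of -0.26 and -0.21. Markers of the ventral telencephalon, which telencephalic tissue can hold beside cortex, had a median of -0.15 and summed to 283 and 303 CPM in cKI f/+ and 284 and 358 CPM in WT. In the main fit none of these lists had a called gene. With edgeR's likelihood ratio test, 1 choroid plexus and 2 meningeal markers were called. Calls in some of these lists also changed when 1 library was left out. The part of such tissue in the levels of the 8 radial glia genes was not tested.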

How the data were processed

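Bulk RNA sequencing of E15 cortex from 2 cKI f/+ and 2 WT libraries was analysed. Raw counts of reads for each gene were deposited by the authors. The submitters' processing notes name TopHat2 2.0.12, Bowtie2 2.2.3, HTSeq 0.6.0 and mm9, whereas positions in the table match GRCm38: of 26433 genes, 26378 were in GENCODE M21 by identifier and 24486 had the same position. Coordinates, transcript lengths and GC content are on GRCm38, and lengths and GC content come from GENCODE M21. The table also holds the authors' mean signal, fold changes and p-values, which were not used. Every count column could be assigned to a genotype.

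Counts were filtered with filterByExpr (15786 genes kept), normalised by TMM and tested with edgeR 4.0.16 (glmQLFit and glmQLFTest, R 4.3.3) on genotype alone, with Benjamini-Hochberg adjustment over all genes and a threshold of 0.05. The standard error is the log2 fold change divided by the square root of F. The pattern measure used a pseudocount of 0.01 CPM. The common biological coefficient of variation was 8.72%. Scripts were tested on simulated data. Alternatives were DESeq2 1.42.0, the likelihood ratio test, other normalisations and filters, removal of chromosomes X and Y, overlapping genes added, each library left out, and, chosen after seeing the data, offsets smoothed on GC content or length.

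The 8 genes and all gene lists were chosen with earlier results of these data known. Genes named from a list were those called, the 2 with the lowest p, the 2 with the highest CPM and, among relatives, the most abundant per length of each family.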

Additional observations from a re-analysis of the deposited data

How the results depend on the processing

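The count of radial glia genes called was 0 of 8 under every alternative run, also at an unadjusted p under 0.05 with all 4 libraries. Over all genes, the 19 calls became 6 with at least 10 counts required in every library, 726 at an unadjusted p under 0.05, 54 with edgeR's likelihood ratio test and 11 after removal of chromosomes X and Y, and ran from 46 to 71 when 1 library was left out. Among the 19 were the Y chromosome genes Kdm5d, Ddx3y and Eif2s3y, which the removal of X and Y takes out. Why the count rose with 1 library left out was not tested. The lone library left in a group is then assumed to vary like the other group. The number of the 8 genes whose groups did not overlap went from 1 to 2 without a filter and to 2 with offsets smoothed on GC content, and from 4 to 6 with 1 library left out, where a group is a single library. The median log2 fold change of the 8 genes stayed between -0.03 and 0.00 with all libraries and between -0.08 and 0.02 with 1 left out. The sign of Prom1 turned to -0.0071 with overlapping genes added, and that of Fabp7 to 0.00097 with offsets smoothed on GC content. With 1 library left out, Sox2 ran from -0.10 to 0.18, Sox9 from -0.21 to 0.14, Nes from -0.024 to 0.15, Vim from -0.049 to 0.12, Fabp7 from -0.22 to 0.11 and Prom1 from -0.065 to 0.080, each crossing 0, whereas Pax6 (-0.19 to -0.02) and Slc1a3 (-0.18 to -0.09) stayed below 0. The lowest adjusted p of any of the 8 in any alternative was 0.606, for Sox9. No paired analysis was possible because the labels give the groups no common replicate number and the count columns of the genotypes share only 1. With 2 libraries per group, the 95% intervals of the 8 genes spanned folds from 0.811 to 1.22, which is not a limit of detection.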
